A study of Mus musculus with 6 samples.

Results

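Glycolysis turns glucose into pyruvate, and several of its steps can be carried by enzymes from more than one gene. The isoform genes Pfkp, Pfkl and Pfkm (phosphofructokinase), Ldha and Ldhb (lactate dehydrogenase), Hk1 and Hk2 (hexokinase) and Slc2a1 and Slc2a3 (glucose transporters) were examined together with Pkm, the pyruvate kinase gene. These 10 genes were chosen by symbol, with their response to budesonide already known from these libraries. All 10 stood in the table of 53819 gene symbols, and all 10 passed the filter on low counts that left 17155 genes for testing. Because the comparison of the groups had chosen them, their values are given as a description, with no p-value.

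The samples were 3D gastruloids grown from mouse ES cells of the E14 line, aggregates that form a posterior pole as they develop. RNA was sequenced from 3 untreated samples and from 3 samples kept with budesonide, a synthetic glucocorticoid, for 80 h. All samples came from the same line. The labels name neither a vehicle for the untreated samples, nor their age at collection, nor separate cultures, so p-values cover the spread of these 6 samples alone, and that spread may be technical. Libraries held from 5666168 to 7476862 counted reads, and 0.346% to 0.360% of them fell on the 10 genes. The stem cell factor Pou5f1 was at 733.9 ± 7.03 CPM (read counts scaled to library size with TMM factors, here and below, as mean ± SD, n = 3) in untreated and 776.0 ± 48.1 CPM in budesonide samples. The pluripotent marker list was detected in full, and 5 of its 6 genes, all but Pou5f1, were called higher with budesonide by edgeR. Of all tested genes 15.2% were called higher.

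Glucose enters the cell through facilitative transporters and is trapped by hexokinase as glucose 6-phosphate. Phosphofructokinase then makes the committed step, and its subunits P (platelet), L (liver) and M (muscle) assemble into mixed tetramers that differ in their regulation. Pyruvate kinase makes pyruvate, and lactate dehydrogenase, a tetramer of A and B subunits, interconverts pyruvate and lactate. The A subunit is the form of glycolytic tissues and the B subunit that of tissues such as heart. Pluripotent stem cells are known for high glycolysis, with differences between the naive and primed states.

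The upstream sequences of Ldha and Ldhb, and of Pfkp and Pfkl, are shown because these 2 pairs had the largest changes in ratio of the 6 pairs compared. Each is the 250 bases before a RefSeq gene start (build GRCm38.p6), 5′ to 3′ on the gene's strand. Capitals mark ACGTG or GCGTG on either strand, the core bound by hypoxia-inducible factors. Ldha lies at chr7:46845554-46845803, plus strand. Ldhb lies at chr6:142507958-142508207, minus strand. Pfkp lies at chr13:6648772-6649021, minus strand. Pfkl lies at chr10:78009808-78010057, minus strand.
Ldha: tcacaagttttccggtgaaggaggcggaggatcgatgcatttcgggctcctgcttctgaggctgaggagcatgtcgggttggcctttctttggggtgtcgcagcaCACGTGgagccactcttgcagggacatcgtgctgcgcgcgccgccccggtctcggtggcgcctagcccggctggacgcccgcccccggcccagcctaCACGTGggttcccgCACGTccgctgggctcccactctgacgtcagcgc
Ldhb: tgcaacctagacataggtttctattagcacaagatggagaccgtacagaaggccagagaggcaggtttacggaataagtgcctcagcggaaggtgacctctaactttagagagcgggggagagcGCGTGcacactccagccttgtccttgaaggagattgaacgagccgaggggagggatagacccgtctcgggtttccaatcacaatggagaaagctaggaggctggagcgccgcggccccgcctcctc
Pfkp: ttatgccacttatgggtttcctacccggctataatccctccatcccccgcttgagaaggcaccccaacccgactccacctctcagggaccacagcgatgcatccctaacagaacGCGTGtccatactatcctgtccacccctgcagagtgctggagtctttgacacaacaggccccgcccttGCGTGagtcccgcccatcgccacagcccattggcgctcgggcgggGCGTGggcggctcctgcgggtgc
Pfkl: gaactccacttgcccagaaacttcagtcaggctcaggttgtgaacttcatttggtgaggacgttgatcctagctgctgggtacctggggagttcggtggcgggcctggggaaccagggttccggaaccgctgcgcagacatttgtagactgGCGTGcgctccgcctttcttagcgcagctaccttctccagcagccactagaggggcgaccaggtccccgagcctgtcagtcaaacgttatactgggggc

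The core was found 5 times upstream of Ldha, 3 times upstream of Pfkp and once each upstream of Ldhb and Pfkl. Of the Ldha matches, 4 lie in the E-box CACGTG, which occurs 2 times there and holds the core on each strand. Start sites of 9 of the 10 genes (Slc2a3 is the other) were in the RefSeq table, 15 windows in all with 2 for Ldha, of which the first is shown, and 12 of the 15 held the core. Among all 32851 windows of that length 38.6% held it. Windows 2 and 3 of Pfkm, in order along the chromosome, overlap and share a match, so the 15 are not separate. The GC content of the 15 was 36.4% to 69.6%, and no comparison with windows of like GC content was made. The E-box CACGTG, bound by MYC and carbohydrate response factors, was in 2 of the 15 windows and in 6.02% of all windows. These matches are letters in a window and show no binding.

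Phosphofructokinase transcripts moved from a near-equal mix of P and L, with less M, to a mix led by P. Pfkp was at 129.0, 134.3 and 125.7 CPM in the untreated libraries and at 345.5, 333.5 and 345.5 CPM in the budesonide libraries. Every budesonide library was thus far above every untreated one, and the log2 fold change was 1.40 ± 0.06 (SE), a 2.63-fold higher level. Pfkl was at 118.4, 139.2 and 126.8 CPM without and at 85.1, 79.3 and 87.9 CPM with budesonide. Its groups did not overlap either, in the other direction, and the log2 fold change was -0.61 ± 0.07 (SE).

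Pfkm, the muscle-type subunit gene, was at 50.6, 56.0 and 55.3 CPM in untreated libraries and at 83.8, 72.5 and 86.4 CPM with budesonide. All budesonide libraries were higher, by 0.58 ± 0.08 on the log2 scale (SE). Per kb of transcript, the P subunit gene gave 38.7%, 36.3% and 36.3% of the family in the untreated libraries and 61.6%, 63.4% and 60.9% in the budesonide libraries. The share of Pfkl went from 40.7% ± 1.19 to 16.9% ± 0.236 (SD, n = 3). The share of Pfkm was 22.2% ± 0.677 and 21.1% ± 1.10, with groups that overlapped narrowly (untreated from 21.80%, budesonide up to 21.92%). That overlap rests on the transcript lengths. As a share of reads, Pfkm was at 16.98% to 17.97% in untreated and 14.95% to 16.63% in budesonide libraries, with no overlap. Per kb of coding sequence every budesonide library was also lower, at most 16.68% against at least 17.02%. Whether the Pfkm share separated the groups thus depended on the length scale, while its level was higher.

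A ratio of isoforms within a library does not depend on how libraries are scaled. The ratio of Pfkp to Pfkl per kb was 0.980, 0.868 and 0.892 in untreated libraries and 3.65, 3.78 and 3.54 with budesonide, 4.01-fold higher. The ratio of Pfkm to Pfkl was 0.547 ± 0.0230 and 1.245 ± 0.0520 (SD, n = 3). Both ratios thus separated the groups with no overlap. Their values rest on the transcript lengths. Per kb of coding sequence Pfkm did not lie above Pfkl with budesonide, at 34.6 ± 3.15 against 35.9 ± 1.87 CPM per coding kb, with overlap. The summed phosphofructokinase level went from 84.4 ± 4.41 to 133.0 ± 5.36 CPM per kb, 1.58-fold higher, so the exchange of isoforms came with a higher total.

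**Figure D1:**
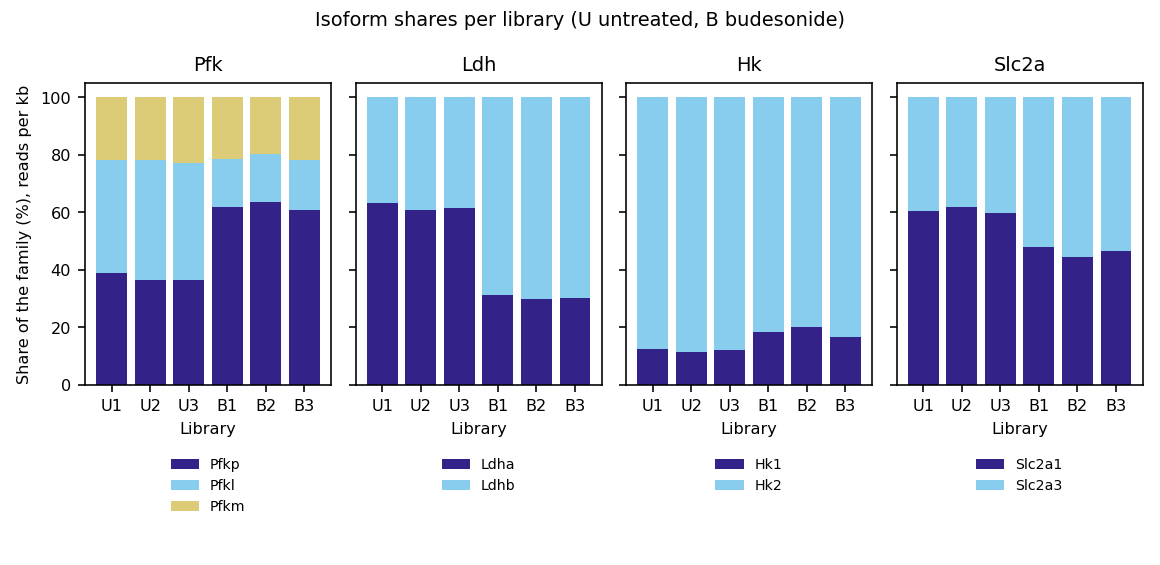
Share of each isoform in its family (vertical axis, percent of reads per kb of transcript) in the 3 untreated (U) and 3 budesonide (B) libraries (horizontal axis), 1 panel per family and 1 colour per gene. Pfkp goes from 36.3% to 38.7% in untreated libraries to 60.9% to 63.4% with budesonide, and Ldha from 60.8% to 63.3% to 29.7% to 31.3%.

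Lactate dehydrogenase turned from mostly A to mostly B transcripts. Ldha was at 427.7, 434.8 and 458.3 CPM in untreated libraries and at 196.8, 179.7 and 187.5 CPM in budesonide libraries. Each budesonide library was thus at less than any untreated one, with a log2 fold change of -1.23 ± 0.06 (SE), 2.34-fold lower. Ldhb was at 178.4, 201.5 and 206.9 CPM without and at 310.5, 304.9 and 311.3 CPM with budesonide. It was higher in every budesonide library, by 0.66 ± 0.06 on the log2 scale (SE).

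The share of Ldha per kb was 63.3%, 60.8% and 61.4% in the untreated libraries and 31.3%, 29.7% and 30.2% in the budesonide libraries, a difference of -31.4 percentage points. The ratio of Ldha to Ldhb was 1.62 ± 0.0903 without and 0.437 ± 0.0164 with budesonide (SD, n = 3), 3.71-fold lower. The more abundant gene of the pair was therefore Ldha in every untreated library and Ldhb in every budesonide library. The sum of both genes was 392.6 ± 19.4 CPM per kb without and 340.5 ± 6.995 CPM per kb with budesonide, a log2 difference of -0.20. With reads summed without regard to length it was -0.35, since the longer Ldha transcript then weighs more. Symbols named as pseudogene copies of Ldha and Ldhb held at most 25 reads in a library, although reads of near-identical copies can be counted on either.

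Hexokinase differed in its minor isoform. Hk2, the inducible form, was at 199.5, 194.0 and 188.4 CPM in untreated and at 188.5, 174.8 and 191.2 CPM in budesonide libraries. These groups overlapped, and the log2 fold change was -0.07 ± 0.06 (SE). Hk1, the widely expressed form, was at 22.0, 19.3 and 19.8 CPM and at 32.4, 33.7 and 29.6 CPM, with every budesonide library higher. Its log2 fold change was 0.65 ± 0.11 (SE). Its share per kb went from 11.9% ± 0.538 to 18.2% ± 1.63 (SD, n = 3), and Hk2 remained the main gene in all 6 libraries. The summed level was 39.9 ± 1.28 and 41.0 ± 1.21 CPM per kb, with overlapping groups. The direction of that small difference turned to -0.04 (log2) with unscaled library totals.

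Of the glucose transporters, Slc2a3 moved and Slc2a1 did not separate the groups. Slc2a3, which encodes the high-affinity transporter GLUT3, was at 124.2, 105.6 and 117.5 CPM without and at 227.0, 214.3 and 230.0 CPM with budesonide. The groups lay far apart, with a log2 fold change of 0.95 ± 0.06 (SE), 1.93-fold higher. Slc2a1, which encodes GLUT1, was at 155.9, 139.6 and 143.6 CPM and at 171.9, 139.9 and 163.3 CPM. Its groups overlapped, and the log2 fold change was 0.11 ± 0.07 (SE). Slc2a3 gave 39.6%, 38.4% and 40.3% of the pair per kb in untreated and 52.1%, 55.8% and 53.7% in budesonide libraries, so the leading transporter gene changed from Slc2a1 to Slc2a3. The summed level of both was 74.1 ± 4.87 and 105.1 ± 7.03 CPM per kb, 1.42-fold higher.

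Pkm was the most abundant of the 10 genes. It was at 2027, 2059 and 2139 CPM in untreated and at 2044, 2009 and 2092 CPM in budesonide libraries. The groups overlapped, with a log2 fold change of -0.02 ± 0.05 (SE), and its sign turned in DESeq2 and when untreated replicate 3 or budesonide replicate 2 was left out. Gene counts do not tell its alternative splice forms apart. Of the 4 splicing regulators listed for Pkm, none passed the edgeR quasi-likelihood test, none had an unadjusted p under 0.05, and none was called by DESeq2. Hnrnpa1, which represses a Pkm exon, was at 1093 ± 61.5 and 1065 ± 45.7 CPM (SD, n = 3).

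**Figure D2:**
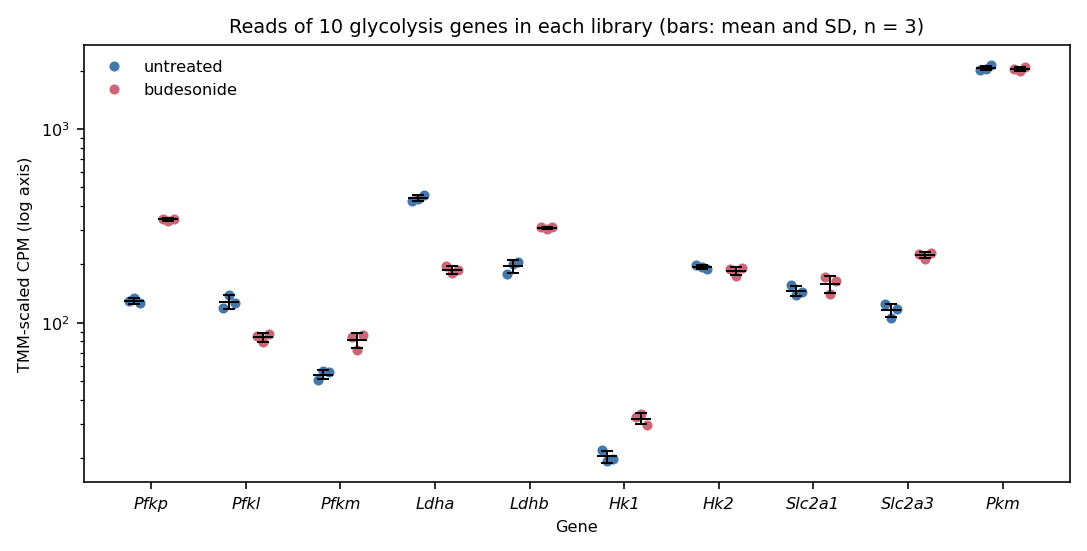
TMM-scaled CPM (vertical axis, logarithmic) of the 10 genes (horizontal axis) in each untreated (blue) and budesonide (red) library, with mean and SD, n = 3. The groups do not overlap for 7 genes, among them Pfkp at 125.7 to 134.3 against 333.5 to 345.5 CPM, and overlap for Hk2, Slc2a1 and Pkm.

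Of all tested genes 28.7% were called by edgeR's quasi-likelihood test (Benjamini-Hochberg adjustment over all genes, threshold 0.05), 15.2% higher and 13.5% lower. Of the called genes 52.9% were higher, against 60.3% in DESeq2 and 38.6% with unscaled library totals. Groups did not overlap for 7 of the 10 genes, 5 higher and 2 lower, and for 39.6% of all genes. Nothing is read from these counts, because this comparison had chosen the genes. The median log2 fold change of the 10 was 0.35, and that of all tested genes was -0.02.

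Per kb of transcript the untreated order was Pkm (853 ± 23.9 CPM per kb), Ldha (243 ± 8.82), Ldhb (149.99 ± 11.6) and Slc2a1 (44.9 ± 2.61). Hk2, Pfkl, Pfkp and Slc2a3 followed between 29.2 and 35.2 CPM per kb, and each overlapped the next of these 4. Pfkm (18.7 ± 1.01 CPM per kb) and Hk1 (4.75 ± 0.333) came last. With budesonide the order was Pkm (842 ± 17.1 CPM per kb), Ldhb (237 ± 2.66), Ldha (104 ± 4.73), Pfkp (82.4 ± 1.67), Slc2a3 (56.5 ± 2.11), Slc2a1 (48.6 ± 5.07), Hk2 (33.5 ± 1.59), Pfkm (28.1 ± 2.56), Pfkl (22.5 ± 1.17) and Hk1 (7.46 ± 0.490), with no overlap between neighbours. Pfkp went from the seventh place to the fourth and Pfkl from the sixth to the ninth, but these places rest on the transcript lengths. Per kb of coding sequence Pfkp went from the seventh place to the fifth, where it overlapped Slc2a3 in the fourth. Pfkl was then in the eighth place in both groups, at 54.8 ± 4.46 and 35.9 ± 1.87 CPM per coding kb, and overlapped Pfkp in untreated and Pfkm in budesonide libraries.

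**Figure D3:**
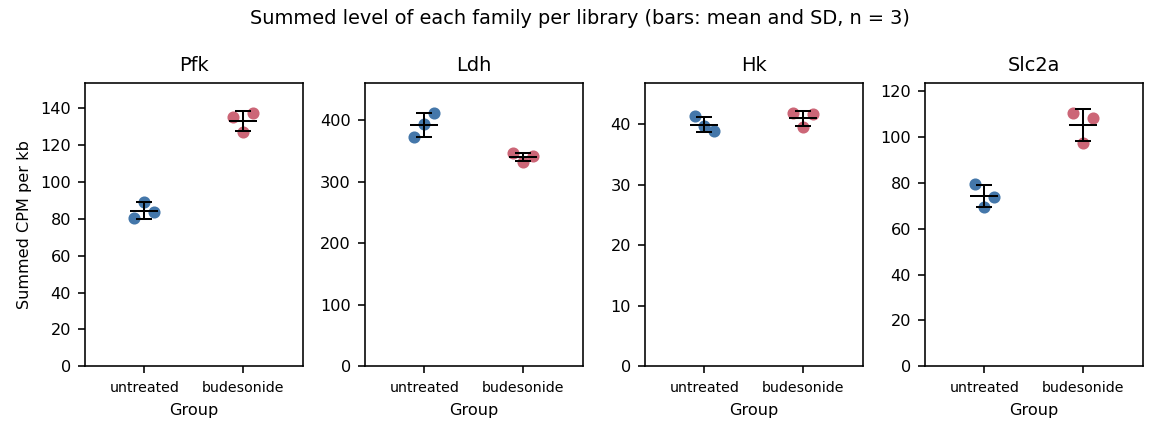
Summed CPM per kb of transcript (vertical axis, from 0) of each isoform family in the untreated and budesonide libraries (horizontal axis), with mean and SD, n = 3. The sums are higher with budesonide for Pfk (133.0 against 84.4) and Slc2a (105.1 against 74.1), lower for Ldh (340.5 against 392.6) and overlap for Hk.

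The other isoforms of these enzymes were at low levels. Of 14 listed genes 9 had enough reads to be tested. By edgeR 2 fell and none rose (22.2% called, against 28.7% of all genes). At an unadjusted p under 0.05 it was 1 higher and 2 lower. DESeq2 called none, but it gave Slc2a2, Pklr, Hk3, Hkdc1 and Slc2a9 no adjusted p. Slc2a2, the transporter of liver and pancreatic beta cells, fell from 2.33 ± 0.420 to 0.899 ± 0.293 CPM (SD, n = 3), adjusted p = 0.0140, with a range of 0.00957 to 0.112 over the alternatives. The call was lost when untreated replicate 2 (adjusted p = 0.112) or budesonide replicate 1 (0.106) was left out. Pklr, the pyruvate kinase gene of liver and red cells, fell from 2.698 ± 0.304 to 1.35 ± 0.155 CPM, adjusted p = 0.0461 by edgeR, and lost the call with no filter (0.108), with the filter at 1 CPM (0.0561), with the replicate block (0.0510) and when any library was left out (0.0726 to 0.164).

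Slc2a4, the insulin-responsive transporter gene, was at 1.68, 3.94 and 1.10 CPM in untreated and at 4.23, 4.12 and 3.68 CPM in budesonide libraries (edgeR adjusted p = 0.0631). Its untreated replicate 2 lay among the budesonide values, and without it the adjusted p was 0.00226 (range over the alternatives 0.00226 to 0.317). Slc2a8, an intracellular transporter, was at 4.89 ± 0.401 and 5.98 ± 0.882 CPM, and Slc2a5, the fructose transporter, at 2.77 ± 0.917 and 2.77 ± 0.388 CPM (SD, n = 3). Slc2a9, a urate transporter, was at 1.71 ± 0.668 and 1.76 ± 0.837 CPM. Hk3 and Hkdc1, further hexokinase genes, were at 2.37 ± 0.686 and 1.64 ± 0.995 CPM and at 1.97 ± 0.554 and 2.12 ± 0.606 CPM. Slc2a7, a transporter gene outside the list that was named after its values were seen, was at 2.33 ± 0.431 and 2.51 ± 0.871 CPM (edgeR adjusted p = 0.919; range over the alternatives 0.716 to 0.999). Ldhc was at 1.88 ± 0.342 and 2.28 ± 0.579 CPM. With all symbols of a family counted, those outside the 10 genes held at most 0.609% of lactate dehydrogenase, 4.98% of hexokinase and 10.5% of the Slc2a reads per kb.

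The remaining enzymes of glycolysis changed in both directions. Of 11 tested, 3 rose and 3 fell by edgeR (54.5% called, against 28.7% of all genes). Log2 fold changes of these 6 ran from -0.47 to 0.33. At an unadjusted p under 0.05 it was 3 higher and 4 lower, and in DESeq2 3 higher and 1 lower. Glucose 6-phosphate isomerase, Gpi1, rose from 360.5 ± 12.5 to 452 ± 34.0 CPM (SD, n = 3; edgeR adjusted p = 1.22e-05). Aldoa, the main aldolase, rose from 521 ± 42.9 to 604 ± 23.9 CPM (edgeR adjusted p = 0.00322), and did not pass with no scaling factors (0.0585; range over the alternatives 2.76e-05 to 0.0585). Gapdh, the dehydrogenase often used as a reference gene, rose 1.10-fold (edgeR adjusted p = 0.0440; range 0.0104 to 0.413). It lost the call with upper quartile scaling (0.185) and unscaled totals (0.413), with no filter (0.323), with the filter at 1 CPM (0.0528), with the replicate block (0.0588), and without untreated replicate 2 (0.137) or 3 (0.0898) or budesonide replicate 1 (0.144) or 3 (0.0873).

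Enolase 1, Eno1, was at 889, 806 and 796 CPM in untreated and at 615, 561 and 622 CPM in budesonide libraries. All budesonide libraries were lower, and Eno1 fell 1.39-fold (edgeR adjusted p = 2.29e-09). Tpi1, triosephosphate isomerase, fell from 83.0 ± 2.23 to 68.2 ± 7.87 CPM (SD, n = 3; edgeR adjusted p = 0.00345), and lost the call in DESeq2 (0.0697) and without budesonide replicate 2 (0.0983; range 0.000166 to 0.0983). Pgam1, phosphoglycerate mutase, fell from 75.6 ± 3.95 to 63.5 ± 4.13 CPM (edgeR adjusted p = 0.00874), and lost the call in DESeq2 (0.106) and without untreated replicate 1 (0.0624) or budesonide replicate 2 (0.0731; range 0.000497 to 0.106). Gapdh, Aldoa, Eno1, Pgam1 and Tpi1 have processed copies in the mouse genome, so some of their reads may be shared.

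At the exits from pyruvate, the lactate exporter gene Slc16a3 (MCT4) fell, and 4 genes of pyruvate dehydrogenase and its control rose. Slc16a3 was at 29.9, 22.1 and 23.7 CPM in untreated and at 13.4, 9.12 and 13.1 CPM in budesonide libraries. The groups did not overlap, and it fell 2.13-fold (edgeR adjusted p = 4.01e-08). The transporter chaperone Emb fell from 79.6 ± 6.57 to 60.9 ± 8.87 CPM (SD, n = 3; edgeR adjusted p = 0.000424). Of the 7 transport genes tested, 2 fell and none rose by edgeR (28.6% called, against 28.7% of all genes). At an unadjusted p under 0.05 it was 2 lower and 1 higher, and in DESeq2 2 lower. Slc16a1 (MCT1), a transporter gene more abundant than Slc16a3, was not called, at 52.9 ± 5.21 and 57.2 ± 3.91 CPM. Bsg was not called either, at 137 ± 6.96 and 149 ± 13.4 CPM.

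Of 12 genes of pyruvate dehydrogenase and its kinases and phosphatases, 4 rose and none fell by edgeR, as also at an unadjusted p under 0.05 and in DESeq2. The share called by edgeR was 33.3%, against 28.7% of all genes. The kinase gene Pdk4, which restrains the complex, rose from 4.28 ± 0.452 to 15.3 ± 1.89 CPM (SD, n = 3; edgeR adjusted p = 6.48e-11). Pdk1, a kinase gene known as a hypoxia target, rose 1.41-fold, to 176 ± 14.1 CPM. The subunit gene Pdhb rose 1.64-fold, to 82.5 ± 8.45 CPM. Both the enzyme and its inhibitors were thus among the risen genes.

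The side branches also changed in part. Of 4 tested gluconeogenesis genes 2 rose and none fell by edgeR (50% called, against 28.7% of all genes). At an unadjusted p under 0.05 and in DESeq2 it was also 2 and none. The risen genes were Pck2, mitochondrial phosphoenolpyruvate carboxykinase, 1.67-fold, and Pcx, pyruvate carboxylase, 1.41-fold. Of 7 pentose phosphate genes 2 rose and 2 fell by edgeR (57.1% called, against 28.7% of all genes). At an unadjusted p under 0.05 it was also 2 and 2, and in DESeq2 2 higher and 1 lower. Rpe was 1.80-fold and Pgd 1.46-fold higher, Pgls 1.48-fold lower, and Tkt 1.13-fold lower (edgeR adjusted p = 0.0191, range over the alternatives 0.000273 to 0.130). Tkt, the transketolase gene, lost its call in DESeq2 (0.124) and without untreated replicate 1 (0.0595) or 3 (0.106) or budesonide replicate 1 (0.0983) or 2 (0.130). Of 8 genes of glycogen and glucose 1-phosphate 1 rose, Pgm1 (phosphoglucomutase, 1.91-fold), and none fell by edgeR, at an unadjusted p under 0.05 or in DESeq2. The share of that list called by edgeR was 12.5%, against 28.7% of all genes.

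Of 5 genes that set the level of the phosphofructokinase activator, 1 rose and none fell in edgeR (20% called, against 28.7% of all genes). At an unadjusted p under 0.05 it was 1 and 1, and none was called in DESeq2. Tigar, which lowers that activator, rose 1.23-fold (adjusted p = 0.0369; 0.115 in DESeq2; range over the alternatives 0.0172 to 0.137). Its call was lost under upper quartile scaling (0.0902), unscaled totals (0.133) or no filter (0.126), and without untreated replicate 1 (0.137) or 3 (0.0931), or budesonide replicate 2 (0.118) or 3 (0.0525). Over all 10 lists of pathway genes outside the members, 73 of 83 genes were tested, 15 rose and 11 fell (35.6% called, against 28.7% of all genes). The split was 14 and 4 in DESeq2, 13 and 15 with upper quartile scaling, and 11 and 17 with no scaling factors. Their median log2 fold change was 0.05.

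**Figure D4:**
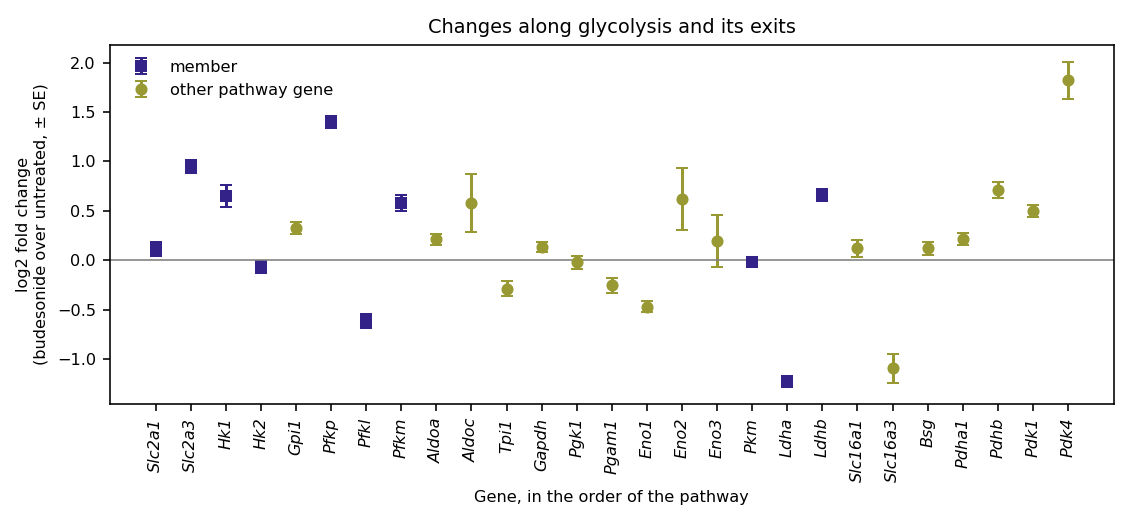
Log2 fold change of budesonide over untreated with its SE (vertical axis) for the 9 isoform genes and Pkm (squares) and other genes of the pathway (circles), in pathway order (horizontal axis). Pfkp (1.40) and Ldha (-1.23) mark the extremes of the 10 genes, while Pkm (-0.02) and Hk2 (-0.07) sit near 0.

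Of 6 listed transcription factors known to act on glycolytic genes, 2 rose and 2 fell by edgeR (66.7% called, against 28.7% of all genes). At an unadjusted p under 0.05 it was 2 higher and 3 lower, and in DESeq2 2 higher and none lower. Epas1, which encodes HIF-2α, rose 4.93-fold, from 25.4 ± 1.57 to 126 ± 13.8 CPM (SD, n = 3), and Hif1a 1.26-fold, to 197 ± 7.68 CPM. Myc fell from 20.9 ± 1.68 to 15.7 ± 2.81 CPM (edgeR adjusted p = 0.0181; range over the alternatives 0.00423 to 0.141), and not in DESeq2 (0.141) or without untreated replicate 2 (0.114) or budesonide replicate 2 (0.0960) or 3 (0.102). Mlxipl, which encodes the carbohydrate response factor ChREBP, fell 1.58-fold (edgeR adjusted p = 0.00734; range 0.00294 to 0.0797), and not in DESeq2 (0.0797) or without untreated replicate 1 (0.0512). Their part in the isoform values was not tested.

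Over the 6 libraries the genes whose centred log2 CPM lay nearest to that of Pfkp were Enox1, Plk3 and Dusp27, at Euclidean distances of 0.142, 0.144 and 0.152. Nearest to Ldha were Slc4a4, Usp3 and Lefty1, at 0.153, 0.154 and 0.157. The search covered 11083 genes at a mean of at least 5 CPM.

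Some marker genes of the studied and of other cell types differed between the groups. Their calls are by edgeR, which called 15.2% of all tested genes higher and 13.5% lower. The summed level of 6 pluripotent and epiblast markers was 1217 to 1257 CPM in untreated and 1761 to 1961 CPM in budesonide libraries, with 5 of the 6 higher. That of 5 endoderm markers was 13.2 to 20.4 and 4.23 to 6.18 CPM, with 1 of 4 tested lower (Foxa2), and Sox7 under 1 CPM in every library. The 4 muscle markers summed to 5.62 to 7.77 and 4.37 to 6.07 CPM, overlapping ranges, with 2 of the 4 under 1 CPM in every library and the 1 tested not called. The 5 fibroblast markers summed to 19.3 to 22.9 and 13.4 to 15.2 CPM, with 2 lower. The 5 trophoblast markers, of which Eomes, Cdx2 and Tfap2c are also genes of the embryo proper, summed to 44.5 to 56.1 and 35.6 to 42.7 CPM, with 1 higher and 2 lower. The 6 blood and endothelial markers summed to 37.8 to 40.5 and 89.9 to 96.7 CPM. Of these, Pecam1, which stem cells also express, was the 1 that passed as higher (27.7 ± 1.16 to 81.8 ± 2.84 CPM). The rise of the sum was thus mostly that of Pecam1. Gata1 was lower in every budesonide library but was not called (log2 fold change -0.931, edgeR adjusted p = 0.0532). Kdr (0.153) and Cdh5 (-0.228) had overlapping groups and were not called. Hba-x, higher in every budesonide library, and Hbb-bh1 had too few reads to be tested. The part of these markers' cells in the isoform values was not tested, and in bulk RNA fewer cells of a type and less RNA per cell cannot be told apart.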

How the data were processed

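Libraries of 6 gastruloid samples were made with a stranded mRNA kit, per the labels' protocols. The tools in the submitters' processing notes are cutadapt 2.5, STAR 2.7.5c, featureCounts 2.0, bcl2fastq and DESeq2, with build GRCm39. The strand setting is not given in the sources used here, so antisense reads (such as Hk1os, at most 6 reads) cannot be told apart. The authors deposited raw counts per gene symbol, used for every value. Their other deposited table, a normalized signal, equals the counts divided by 1 factor per library (within 0.05 reads), and served only for that check.

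Groups were read from the titles. Counts were tested with edgeR 4.0.16 (R 4.3.3) after filterByExpr (at least 10 reads, total 15) and TMM scaling, by robust quasi-likelihood on group alone, adjusted over 17155 genes. The fit was also run on simulated counts with the same dispersion for every gene, in which only genes of at least 5 CPM were changed. Calls at lower levels were not covered by that run. Standard errors come from the F statistic. A count of 3 reads is 0.422 to 0.552 CPM, and such limits cover counting error only. Libraries of a group differed by 1.43 to 3.14 chi-square units per gene (1 is sampling noise). Per-kb values divide by the longest protein-coding GENCODE M21 transcript (GRCm38).

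The genes and lists were chosen with earlier results of these data known. Beside the 10 genes, the text names every tested gene of the list of other isoforms and, per further list, up to 3 risen and 3 fallen genes ranked by adjusted p (mean of 1 CPM or more), or the most abundant if none passed. Slc2a7, Slc16a1, Bsg, Foxa2, Sox7, Pecam1, Gata1, Kdr, Cdh5, Hba-x and Hbb-bh1 were named after their values were seen. Alternatives were DESeq2 1.42.0, RLE, upper quartile and no scaling, other filters, the replicate number as a block, a threshold of 0.01, other lengths, and each library left out. Coding lengths, the order by them and the alternatives for summed levels were chosen after seeing the data.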

Additional observations from a re-analysis of the deposited data

How the results depend on the processing

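The differences in share between the groups, for Pfkp, Pfkl, Pfkm, Ldha, Hk1 and Slc2a3, kept their direction under every alternative. These were no length correction, coding lengths, all symbols of a family where there were more, and each library left out. Each move was smaller than the larger group SD, but not always than the smaller. With coding lengths the Hk1 difference went from 6.33 to 5.14 percentage points (SD 0.538 untreated, 1.63 budesonide). That of Pfkl went from -23.7 to -24.5 percentage points (SD 1.19 untreated, 0.236 budesonide). The shares themselves moved with the lengths: that of Ldha in untreated libraries was 61.8% per kb of transcript, 67.6% per kb of coding sequence and 69.3% of reads, and that of Slc2a3 39.4%, 44.1% and 44.1%. The difference for Pfkp ranged from 24.1 to 25.6 percentage points over the left-out libraries, that for Pfkl from -24.3 to -23.1, Pfkm from -1.53 to -0.49, Ldha from -31.9 to -30.7, Hk1 from 5.49 to 7.12 and Slc2a3 from 13.5 to 15.3. The summed Pfk level differed by 0.58 (log2) and that of Ldh by -0.28 with library totals and no scaling factors, where the Hk sum turned to -0.0391; the Ldh sum differed by -0.35 with no length correction and by -0.32 with coding lengths, the length weights being the only change. The left-out libraries gave 0.62 to 0.70 for Pfk, -0.24 to -0.17 for Ldh, 0.02 to 0.06 for Hk and 0.46 to 0.56 for Slc2a.

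Of 601 single-gene values under an alternative 523 kept direction and call, 51 lost the call, 2 gained it, 6 moved beyond the replicate spread and 19 turned sign. Those that turned were genes not called: Pkm (0.00596 in DESeq2, -0.0308 to 0.0172 over the left-out libraries), Slc2a5 (0.0207 in DESeq2, 0.00328 with RLE, 0.00485 with the 1 CPM filter, 0.00653 with the replicate block, -0.236 to 0.260 over left-out libraries), Slc2a9 (-0.0275 with no scaling factors, -0.385 to 0.401 over left-out libraries), Slc2a7 (-0.0102 with no scaling factors, -0.211 to 0.261 over left-out libraries), Hkdc1 (-0.113 to 0.317) and Hnrnpa1 (-0.0699 to 0.0195). DESeq2 called 1318 genes lower, against 2316 in edgeR. Pathway genes called lower numbered 11, against 4 in DESeq2, 17 with no scaling factors, 7 at an adjusted p under 0.01, and 6 to 9 with a library left out (7 without untreated replicate 1, 6 without budesonide replicate 2); the cause was not tested. Those called higher numbered 15, and 11 to 17 over the alternatives.

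Samples of equal number deviated with correlations of 0.04, 0.06 and -0.02, and samples of unequal number with correlations of -0.07 to 0.03. Counting noise over all tested genes enters these values, so they do not decide whether the numbers pair the samples. With the replicate block 16 pathway genes were higher and 10 lower in edgeR. Slc2a4 then passed (adjusted p = 0.0389) and Pklr and Gapdh did not (0.0510 and 0.0588). Genes near 0.5 CPM rest on about 3 reads, which limits the isoforms listed at low levels.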
